A study of Mus musculus with 7 samples.

Results

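The leukotriene and prostanoid enzymes measured here are 8 genes: the lipoxygenase genes Alox5, Alox12 and Alox15, the 5-lipoxygenase activating protein gene Alox5ap, the leukotriene synthesis genes Lta4h and Ltc4s, and the cyclooxygenase genes Ptgs1 and Ptgs2. Each of the 8 symbols was matched through its Ensembl identifier to a row of the 55855 rows in the FPKM table (fragments scaled by gene length and by the reads counted in a library). The group was chosen by the FPKM of Alox5, at 0 in control and above 0 in Fth1-deleted libraries, and the other genes were added as other lipoxygenases or as neighbours in the pathway, so their levels between these groups are given as a description. RNA came from hematopoietic stem cells of mouse bone marrow at 2 months of age. The control group was labelled Fth1fl/fl, with floxed alleles of ferritin heavy chain 1 that are not deleted (n = 3 libraries). The Fth1-deleted group was labelled Fth1△/△ (n = 4 libraries). The series text places the deletion in the hematopoietic system, but the Cre driver and the sex of the mice are not given in the sources used here. Nothing states that each library is a separate mouse, so errors and p-values measure the spread between libraries.

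Arachidonate is a fatty acid cut from membranes by phospholipases and oxidized by enzyme families that carry iron. Lipoxygenases hold a single non-heme iron, which must be in its oxidized form to act, and cyclooxygenases hold heme. The Alox5 enzyme, 5-lipoxygenase, receives arachidonate from the membrane protein encoded by Alox5ap and makes leukotriene A4. Lta4h converts that product to leukotriene B4, a chemoattractant of neutrophils, and Ltc4s joins it to glutathione to give leukotriene C4. Alox12 is known from platelets, and mouse Alox15 from eosinophils and resident macrophages. Ptgs1 and Ptgs2 start the synthesis of prostaglandins and thromboxane, and prostaglandin E2 is known to act on hematopoietic stem cells.

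Promoter sequence was held for 6 of the 8 members in the RefSeq table of GRCm38.p6. The 250 bases before the start of Alox5 are shown because it was the member listed at 0 in a whole group, and those of Lta4h and Ptgs1 because these members had the highest levels in every library. They are written 5′ to 3′ on the strand of the gene, with matches to the GC box GGGCGG (searched on both strands) in capitals.
Alox5, chr6:116461179-116461428, minus strand: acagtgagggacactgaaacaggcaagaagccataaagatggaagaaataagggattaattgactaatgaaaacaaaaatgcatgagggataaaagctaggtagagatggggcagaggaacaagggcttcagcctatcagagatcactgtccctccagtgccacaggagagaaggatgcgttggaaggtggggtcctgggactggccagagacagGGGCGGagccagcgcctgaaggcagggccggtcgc
Lta4h, chr10:93453146-93453395, plus strand: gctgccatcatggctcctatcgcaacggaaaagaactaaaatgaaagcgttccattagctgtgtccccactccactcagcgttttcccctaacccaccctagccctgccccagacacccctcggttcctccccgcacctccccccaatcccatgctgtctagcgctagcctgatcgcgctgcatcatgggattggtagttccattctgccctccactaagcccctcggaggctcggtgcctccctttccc
Ptgs1, chr2:36230176-36230425, plus strand: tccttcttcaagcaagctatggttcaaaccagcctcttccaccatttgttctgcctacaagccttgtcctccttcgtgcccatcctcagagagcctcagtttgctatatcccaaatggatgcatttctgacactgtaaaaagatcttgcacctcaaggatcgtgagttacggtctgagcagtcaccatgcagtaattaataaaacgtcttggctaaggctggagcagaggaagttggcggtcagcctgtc
The Alox5 window held 1 GC box, 35 bases before the start. The Alox12 window held 2 and the Ptgs2 window 1, while those of Lta4h, Ltc4s and Ptgs1 held 0. Of all 32851 promoters in the table, 32.7% held a GC box in the same window. None of the 6 windows held TGACNNNGC, the core of the antioxidant response element, in either orientation, which 10.2% of all promoters held. The TATA box TATAAA, the GATA factor motif AGATAA and the E-box CACGTG had 0 matches in the 6 windows as well, against 12.4%, 9.99% and 6.02% of all promoters.

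Counted reads, recovered from the FPKM steps, ranged from 12058392 to 15453168 per library. Fth1 itself was at 552 to 659 FPKM in control and at 114 to 358 in Fth1-deleted libraries. All 12 genes of a stem cell marker list, among them Procr, Mecom, Hlf and Kit, were detected in both groups, with sums of 957 to 1576 FPKM in control and 649 to 895 in Fth1-deleted libraries, without overlap. Libraries differed in ways the groups do not fully explain: ribosomal RNA took 0.985% to 1.34% of reads in control 2 and the 4 Fth1-deleted libraries but 0.0140% and 0.0254% in the other two. Y-linked reads were present in control 2 and Fth1-deleted 1, 2 and 3, and mt-Co2 was high in control 1 and Fth1-deleted 3. Gene by gene, the whole table was tested with limma on log2(FPKM + 1) over the 13948 genes averaging 1 FPKM or more, and 0.0574% of them passed an adjusted p of 0.05 (Benjamini-Hochberg), 0.0287% higher and 0.0287% lower.

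Alox5 RNA was listed at 0 in control stem cells and was present in each Fth1-deleted library, and the RNA of its partner Alox5ap was 2.04-fold higher. Alox5 (ENSMUSG00000025701, chromosome 6, 116410077 to 116461178, minus strand, GRCm38) was at 0, 0 and 0 FPKM in control 1, 2 and 3. In Fth1-deleted 1, 2, 3 and 4 it was at 8.21, 6.44, 19.3 and 16.3 FPKM, worth 224, 155, 437 and 427 reads. The groups do not overlap, and Fth1-deleted 3 and 4 stand above Fth1-deleted 1 and 2. A count of 0 allows up to 3 reads per library, or 0.113 to 0.141 FPKM of Alox5 in the control libraries. By counting error alone, the mean of 12.6 FPKM would be at least 100.3-fold higher. Such floors cover counting error only. Libraries at 0 were common among genes of this mean level, so the fold is not a firm lower bound. On the log2(FPKM + 1) scale the difference, Fth1-deleted minus control, was 3.64 (SE 0.60), a value that depends on the added constant.

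Alox5ap (ENSMUSG00000060063, chromosome 5, 149264767 to 149288153, plus strand) was at 16.9, 26.3 and 21.1 FPKM in control 1, 2 and 3. In Fth1-deleted 1, 2, 3 and 4 it was at 40.0, 44.4, 45.8 and 44.3 FPKM. Every Fth1-deleted library was above every control library, and the Fth1-deleted libraries lay close together, with a coefficient of variation of 5.79% against 22.2% in control. Means were 21.4 ± 4.75 (SD, n = 3) and 43.6 ± 2.53 FPKM (SD, n = 4), a 2.04-fold difference, with a log2 difference of 1.01 (SE 0.26). By FPKM, Alox5ap RNA was above Alox5 RNA in each Fth1-deleted library, with Alox5 at 0.205, 0.145, 0.422 and 0.369 of the FPKM of Alox5ap in Fth1-deleted 1 to 4.

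The groups do not overlap for either gene, so the direction is set in every split of the libraries, and only the sizes are given, some from 1 library a group. Among the 5 libraries rich in ribosomal RNA, Alox5 was at 0 in control 2 and at 6.44 to 19.3 FPKM in the Fth1-deleted libraries. Alox5ap was 1.66-fold higher there than in control 2, with a log2 difference of 0.71, and 0.55 with the ribosomal RNA share as a covariate. Among libraries with Y-linked reads Alox5ap was 1.65-fold higher, and without them 2.33-fold higher. Among the 5 libraries low in mt-Co2 it was 1.81-fold higher, and between the pair of libraries high in mt-Co2 2.72-fold. In bulk RNA, more cells that express a gene and more RNA per cell cannot be told apart.

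**Figure D1:**
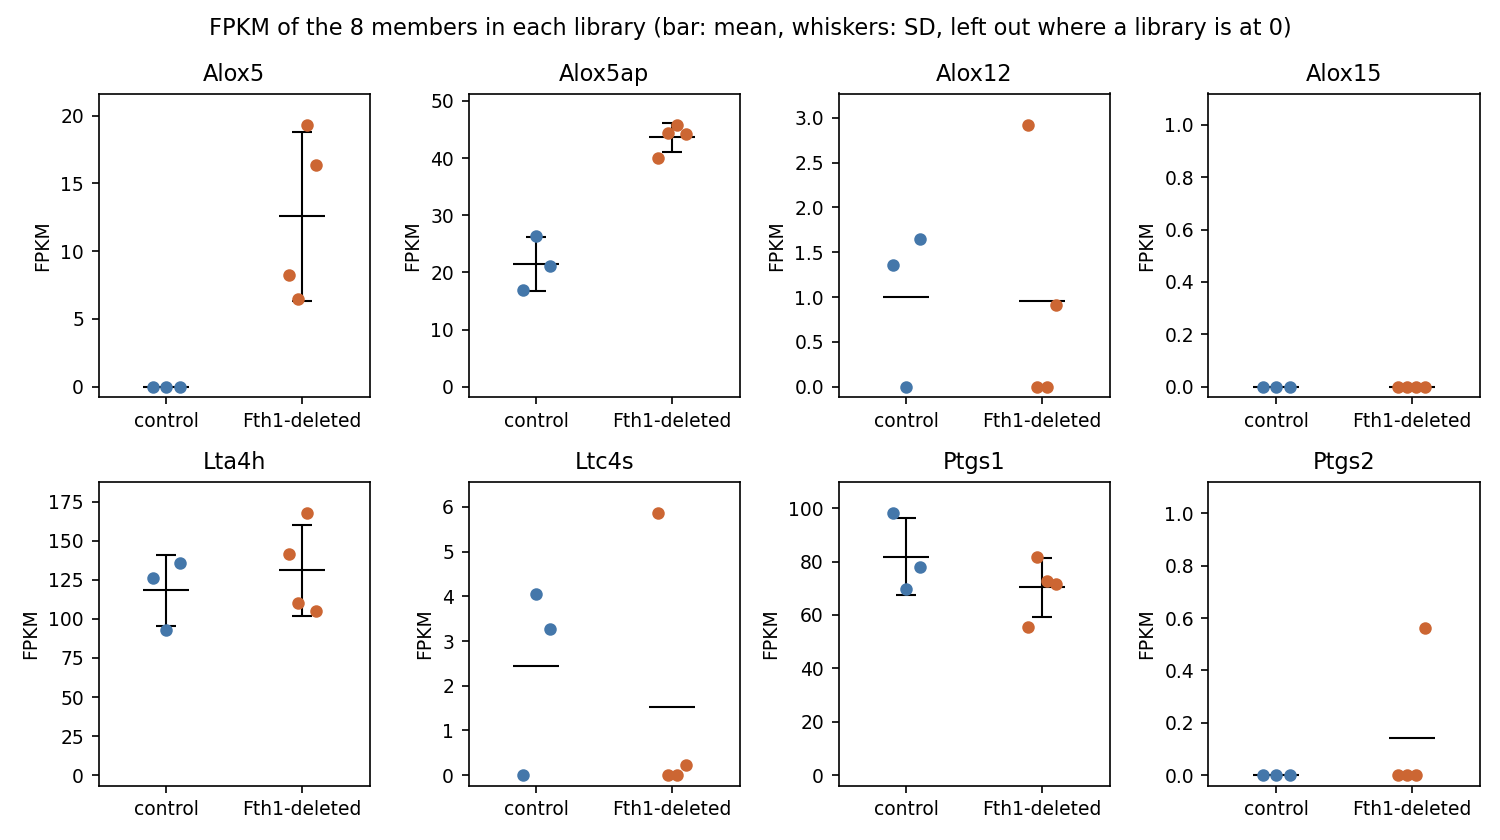
FPKM of each of the 8 members (vertical axes, 1 panel per gene, each with its own scale) in 3 control and 4 Fth1-deleted libraries. Points are libraries, bars are group means and whiskers are SD, left out where a library of the group is at 0. Alox5 and Alox5ap are the members whose groups do not overlap.

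Over the 8 members, 5 averaged 1 FPKM or more and entered the limma test. Alox5 entered it only through the Fth1-deleted group, and Alox12, Alox15 and Ptgs2 did not enter. Of the 5, 0 passed the adjusted threshold in limma, and 2, Alox5 and Alox5ap, had an unadjusted p below 0.05, as had 9.83% of all tested genes. Limma-voom on the recovered reads also gave 0. Groups did not overlap, with Fth1-deleted higher, for 2 of the 5 and for 4.1% of all tested genes. Because the members were listed with this contrast known, nothing is read from these counts.

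Both enzymes that use leukotriene A4 overlapped between the groups. Lta4h, the leukotriene A4 hydrolase (ENSMUSG00000015889, chromosome 10, 93453411 to 93484875, plus strand), was the most abundant member in all 7 libraries. It was at 126, 92.8 and 136 FPKM in control and at 142, 110, 168 and 105 in Fth1-deleted libraries, so the groups overlapped. The log2 difference was 0.14 (SE 0.22). Lta4h lay above 93.0% of tested genes by mean level.

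Ltc4s, the leukotriene C4 synthase (ENSMUSG00000020377, chromosome 11, 50236461 to 50238616, minus strand), was detected in some libraries of each group and not in others. It was at 0, 4.04 and 3.27 FPKM in control 1, 2 and 3, or 0, 37 and 24 reads. In the Fth1-deleted libraries it was at 5.85, 0, 0 and 0.222 FPKM, or 55, 0, 0 and 2 reads. The groups overlapped over their whole range, with a log2 difference of -0.71 (SE 0.93). The antisense gene Gm26542 overlaps Ltc4s and was above 0 in Fth1-deleted 1 (4.77 FPKM) and 4 (0.659 FPKM) alone. Whether counting used strand is not given in the sources used here, so reads of these overlapping genes cannot be told apart and the level of Ltc4s is uncertain. The antisense gene Gm19719, which overlaps Alox5ap, was at 0 to 5.01 FPKM in control and at 0 to 2.14 in Fth1-deleted libraries. The gene closest to Alox5, March8 on the opposite strand, ends 537 bp from it and was at 12.7 to 49.6 and 19.4 to 36.5 FPKM, with overlapping groups.

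The other lipoxygenases were scarce. Alox12 (ENSMUSG00000000320, chromosome 11, 70241457 to 70255353, minus strand), the 12-lipoxygenase of platelets, was at 1.36, 0 and 1.65 FPKM in control and at 2.92, 0, 0 and 0.915 in Fth1-deleted libraries. These are 50, 0 and 53 reads, and 120, 0, 0 and 36 reads, so that 2 libraries of each group had reads and the groups overlapped. Alox15 (ENSMUSG00000018924, chromosome 11, 70344152 to 70352031, minus strand) was at 0 in all 7 libraries, which allows up to 3 reads in each, or 0.137 to 0.175 FPKM. Among the lipoxygenase genes that are not members, Alox8, Alox12b and Alox12e were at 0 in all 7 libraries and Aloxe3 was above 0 only in Fth1-deleted 3, at 2.30 FPKM. Alox5 was thus the lipoxygenase with the highest level in each Fth1-deleted library. By transcript alignment the closest relatives were Alox12e and Alox15 at 72.1% identity, Alox12 and Alox15 at 69.4%, and Alox5 and Alox8 at 68.9% over 286 bases.

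The cyclooxygenases were represented by Ptgs1. Ptgs1 (ENSMUSG00000047250, chromosome 2, 36230426 to 36252272, plus strand), the constitutive cyclooxygenase, was at 98.0, 69.8 and 77.9 FPKM in control and at 55.4, 81.8, 72.5 and 71.6 in Fth1-deleted libraries. The groups overlapped, with Fth1-deleted 1 lowest, and the log2 difference was -0.22 (SE 0.22). Ptgs2 (ENSMUSG00000032487, chromosome 1, 150100031 to 150108227, plus strand), the inducible cyclooxygenase, was at 0 in 6 libraries and at 0.562 FPKM, or 20 reads, in Fth1-deleted 4. A count of 0 allows up to 0.0829 to 0.103 FPKM of Ptgs2 in the control libraries.

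FPKM is per length, here the mean length of the annotated transcripts of a gene. Levels can thus be set side by side between genes only roughly, since the expressed transcripts may be longer or shorter. Lta4h was above Ptgs1, and Ptgs1 above Alox5ap, in each of the 7 libraries. Lta4h and Ptgs1 overlapped across the control libraries (92.8 to 136 against 69.8 to 98.0) but not across the Fth1-deleted libraries (105 to 168 against 55.4 to 81.8). Alox5 followed these 3 in every Fth1-deleted library. Ltc4s, Alox12 and Ptgs2 followed, and their ranges overlapped with one another in the Fth1-deleted group.

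Around the members, 0 genes of the wider arachidonate pathway passed the test. Over 10 lists by role, chosen with earlier results of these data known, 122 genes had a row, 91 were above 0 in some library and 73 were tested. In limma 0 of the 73 rose, 0 fell and 73 did not pass at an adjusted p of 0.05, with 0.0574% of all genes passing. Limma-voom also gave 0. An unadjusted p below 0.05 was found for 11 of 73 (15.1%) and for 9.83% of all tested genes. The median log2 difference was -0.01 with 36 positive (49.3%), against a median of -0.02 and 48.7% positive over all tested genes. Groups did not overlap for 5 of the 73 with Fth1-deleted higher (6.85%, against 4.1% of all tested genes) and for 8 with Fth1-deleted lower (11.0%, against 5.55%). Some of these genes entered the test only through the group where they are higher, Ptgir through Fth1-deleted and Ptges and Hpgds through control libraries. Nothing is therefore read from these shares.

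Upstream of the lipoxygenases, the genes of arachidonate release had a median log2 difference of -0.15 over 10 tested genes. Of these, 3 were positive, against 48.7% of all tested genes. Pla2g4a, the cytosolic phospholipase that frees arachidonate, was at 48.5, 51.6 and 50.9 FPKM in control. It was at 54.4, 54.6, 23.7 and 45.3 FPKM in Fth1-deleted libraries, where Fth1-deleted 3 was low (log2 difference -0.24, SE 0.30). Pla2g6, a calcium-independent phospholipase, and Plaa, a phospholipase A2 activating protein, had log2 differences of -0.22 (SE 0.32) and 0.42 (SE 0.32). The 12 genes that attach arachidonate to coenzyme A or return it to membranes had a median of 0.02. Acsl5 and Lpcat3 overlapped between groups, with log2 differences of 0.29 (SE 0.28) and -0.22 (SE 0.30). Mboat7, which puts arachidonate into phosphatidylinositol, was at 53.1 to 66.9 FPKM in control and 46.6 to 51.3 in Fth1-deleted libraries (log2 difference -0.29, SE 0.21, limma adjusted p = 0.684). Mboat1, a lysophospholipid acyltransferase, and Pnpla8, a phospholipase, also did not overlap, and both were picked after seeing their values. Mboat1 was at 6.35 to 8.80 FPKM in control and 9.19 to 17.5 in Fth1-deleted libraries (limma adjusted p = 0.552). Pnpla8 was at 18.4 to 21.3 FPKM in control and 6.28 to 16.8 in Fth1-deleted libraries (limma adjusted p = 0.540).

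Of the partners of 5-lipoxygenase, Cotl1, the coactosin-like protein that binds the enzyme, did not overlap between groups. It was at 102, 95.3 and 117 FPKM in control and at 136, 134, 142 and 183 in Fth1-deleted libraries (log2 difference 0.50, SE 0.19, limma adjusted p = 0.436). Mapkapk2, a kinase that can phosphorylate 5-lipoxygenase, had a log2 difference of 0.15 (SE 0.20). The median of these 6 genes was 0.10. Glutathione and thioredoxin peroxidases remove the lipid hydroperoxides that activate lipoxygenases. The list of these enzymes and catalase held 12 tested genes, of which 10 had a positive log2 difference and 0 passed, with a median of 0.19. Over all tested genes 48.7% were positive. Gpx1 was at 663 ± 181 FPKM in control (n = 3) and 747 ± 144 in Fth1-deleted libraries (n = 4), Gpx4 had a log2 difference of 0.18 (SE 0.16) and Prdx6 0.19 (SE 0.20). Prdx4, the peroxiredoxin of the endoplasmic reticulum, named after its values were seen, was at 25.8 to 50.5 FPKM in control and 54.6 to 81.6 in Fth1-deleted libraries, without overlap (limma adjusted p = 0.426).

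Downstream, the receptor gene with a sizeable level was Cysltr2, a receptor of leukotriene C4 and its products. It was at 37.3, 35.2 and 29.3 FPKM in control and at 14.5, 14.7, 5.01 and 15.9 in Fth1-deleted libraries. The groups do not overlap, and the mean was 2.71-fold lower in Fth1-deleted libraries (log2 difference -1.47, SE 0.41, limma adjusted p = 0.284), a difference that did not pass the threshold. Of the 11 receptor genes with a row, 3 were tested. Ltb4r2 and Cmklr1, receptors of leukotriene B4 and of chemerin, were at 0 to 2.97 and 0 to 3.27 FPKM. Ltb4r1, the high-affinity leukotriene B4 receptor, was above 0 only in Fth1-deleted 3, at 3.92 FPKM. The 12 tested genes of leukotriene metabolism and export had a median of -0.13. Abcc1, the exporter of leukotriene C4, had a log2 difference of 0.06 (SE 0.23), Abcc4 0.58 (SE 0.36) and the cytochrome gene Cyp4f16 -0.31 (SE 0.30). Mgst3, a microsomal glutathione transferase related to Ltc4s and named after its values were seen, was at 8.73, 17.4 and 14.0 FPKM in control and at 1.42, 0, 2.99 and 10.4 in Fth1-deleted libraries (limma adjusted p = 0.413).

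On the prostanoid branch, the 11 tested genes of synthesis and clearance had a median of -0.12. Ptges3 was at 138, 70.7 and 96.3 FPKM in control and at 145, 159, 177 and 181 in Fth1-deleted libraries, with groups that do not overlap (log2 difference 0.74, SE 0.23, limma adjusted p = 0.339). It encodes the cytosolic prostaglandin E synthase, also known as the HSP90 cochaperone p23. Tbxas1, the thromboxane synthase, was at 94.7 ± 17.6 and 67.2 ± 10.7 FPKM (SD, n = 3 and 4), and Akr1b3 had a log2 difference of 0.30 (SE 0.25). A pair of genes is named after their values were seen. Ptges, the inducible prostaglandin E synthase, was at 11.4, 9.41 and 11.3 FPKM in control and at 1.21, 0, 0 and 0 in Fth1-deleted libraries, without overlap (log2 difference -3.26, SE 0.63, limma adjusted p = 0.112). Hpgds, the hematopoietic prostaglandin D synthase, was at 3.05, 6.73 and 12.0 FPKM in control and at 1.87, 0.877, 1.02 and 0 in Fth1-deleted libraries without overlap (limma adjusted p = 0.382). Both Ptges and Hpgds entered the test only through the control group.

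Of the 4 tested prostanoid receptors, Ptger4, a receptor of prostaglandin E2, was at 8.58, 11.4 and 18.5 FPKM in control and at 3.41, 5.30, 4.94 and 5.82 in Fth1-deleted libraries. The groups do not overlap (log2 difference -1.19, SE 0.47, limma adjusted p = 0.444). Ptgir, the prostacyclin receptor, named after its values were seen, was listed at 0 throughout the control group and at 0.494, 3.68, 2.56 and 1.46 FPKM in Fth1-deleted libraries (limma adjusted p = 0.551). It entered the test only through the Fth1-deleted group. Ptger3 had a log2 difference of -0.03 (SE 0.33) and the thromboxane receptor Tbxa2r -0.35 (SE 0.56). Among epoxygenases, Cyp2j9 and Cyp2j6 were at 8.92 to 23.9 and 4.58 to 10.6 FPKM in control, and at 3.45 to 7.55 and 2.06 to 4.12 in Fth1-deleted libraries, without overlap. Their limma adjusted p was 0.444 and 0.577. The epoxide hydrolase gene Ephx1 had a log2 difference of 0.11 (SE 0.48).

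**Figure D2:**
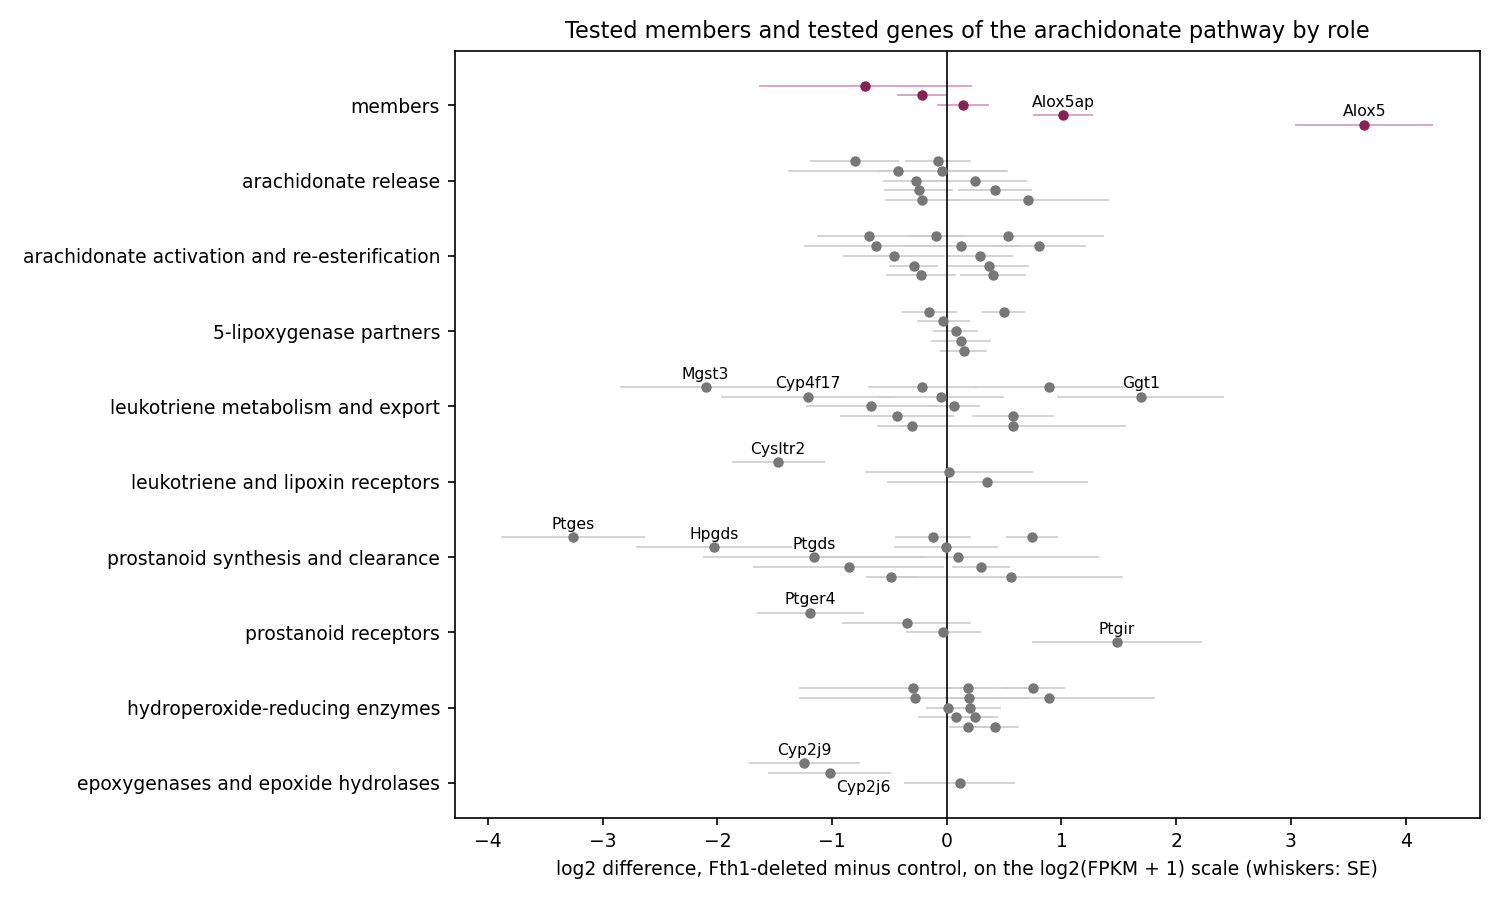
Log2 difference between Fth1-deleted and control libraries (horizontal axis, on the log2(FPKM + 1) scale, whiskers SE) for the 5 tested members in purple and 73 tested pathway genes in grey, by role. Genes beyond 1 in either direction are named. Alox5 lies at 3.64 and Ptges at -3.26, and 0 of these genes passed the adjusted threshold.

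Alox5 was chosen by its pattern, so its place among genes of the same pattern is a description only. Of the tested genes, 20 (0.143%) were at 0 in every control library and at 1 FPKM or more in every Fth1-deleted library, and Alox5 ranked 4 among them by Fth1-deleted mean. The opposite pattern was seen for 17 genes (0.122%). Libraries at 0 were common at this level: of the 1701 genes with a mean from 5 to 10 FPKM, 26.4% had at least 1 library at 0, 33 were at 0 in all control libraries and 24 in all Fth1-deleted libraries. By root mean square difference in log2(FPKM + 1) over the 7 libraries, the named genes closest to Alox5 were Best1, a chloride channel (0.40), Bok, a BCL2 family gene (0.43), and Vpreb1, a surrogate light chain of B cell precursors (0.56). Bbs5, a part of the ciliary BBSome (0.65), and Mypopos, an antisense gene (0.68), came next. All 5 were at 0 in the control libraries. Vpreb1 was at 4.06, 9.71, 29.5 and 31.8 FPKM in Fth1-deleted 1 to 4 and, like Alox5, higher in Fth1-deleted 3 and 4. Best1 was at 10.6 to 14.5 FPKM. Of the other tested members, Ltc4s was the closest to Alox5 at 2.72, rank 5624 of 13947 tested genes. Alox5ap was at 3.27, rank 8447, so neither lay close.

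**Figure D3:**
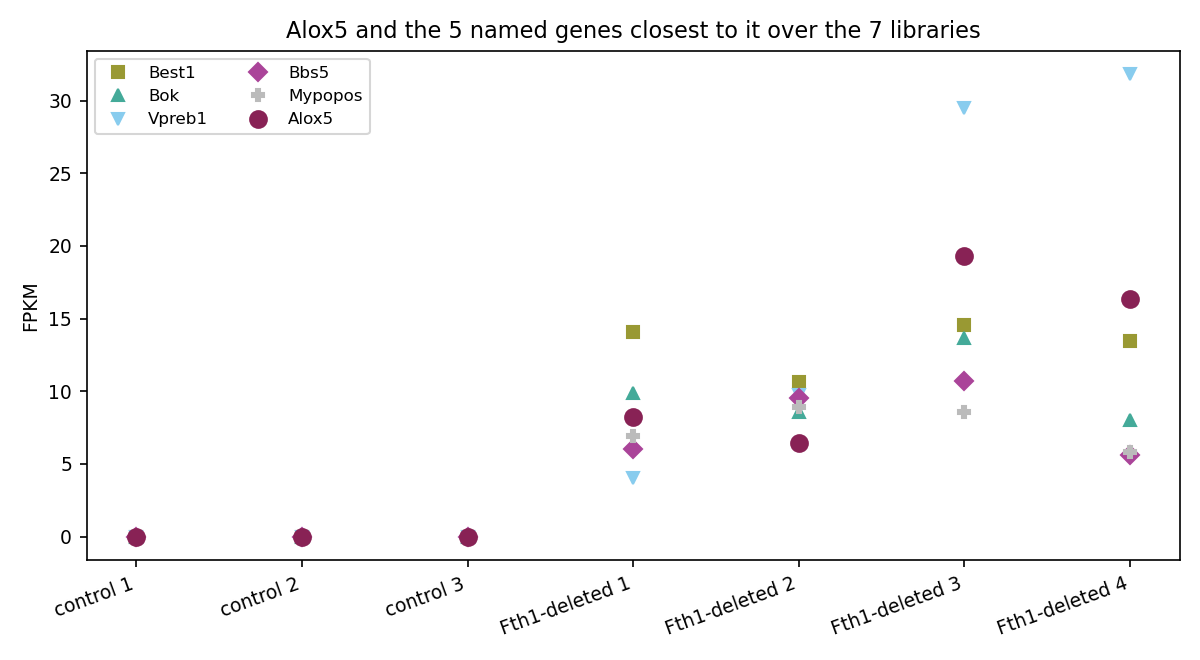
FPKM (vertical axis) of Alox5 and of the 5 named genes with the smallest root mean square difference from it, in each of the 7 libraries (horizontal axis). The 6 genes overlie at 0 in the 3 control libraries, and Alox5 and Vpreb1 are higher in Fth1-deleted 3 and 4 than in Fth1-deleted 1 and 2.

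Alox5 and Alox5ap are known from neutrophils, monocytes, mast cells and B cells, so markers of these cells are given beside them. Of 78 tested markers over 9 lists, 0 rose and 1 fell in limma at an adjusted p of 0.05, with 0.0574% of all genes passing. An unadjusted p below 0.05 was found for 19 of the 78 (24.4%) and for 9.83% of all tested genes. Some markers, such as Vpreb1, entered the test only through the group where they are higher, so nothing is read from this share. The 1 call was lost with 1 library left out in 6 of the 7 cases, control 1 being the exception. Without Prtn3, its most abundant gene, the neutrophil and myeloid progenitor list summed to 9.41, 19.5 and 44.8 FPKM in control. It summed to 62.9, 63.5, 305 and 265 FPKM in Fth1-deleted 1 to 4, with 7 of 14 genes above 0 in control and 12 of 14 in Fth1-deleted libraries. Mpo, the myeloperoxidase of granule precursors, was at 2.33, 3.63 and 0.255 FPKM in control and at 23.4, 15.4, 84.2 and 135 FPKM in Fth1-deleted 1 to 4. Its limma adjusted p of 0.0803 did not pass. Of the 10 tested genes of the list, only Mpo had groups that do not overlap. Elane and Ctsg were at 0 in control and in Fth1-deleted 1 and 2. They were at 121 and 28.3 FPKM in Fth1-deleted 3, and at 59.9 and 25.7 in Fth1-deleted 4. Of the granule genes of later neutrophils on the list, Fcnb and Mmp8 were at 0 in all 7 libraries, while others were detected. S100a9 was at 0, 0 and 20.3 FPKM in control and at 9.15, 9.82, 12.6 and 19.5 in Fth1-deleted libraries. Camp was at 0, 0 and 6.78 FPKM in control and at 4.87, 13.5, 0 and 10.3 in Fth1-deleted libraries. Lcn2 and Ltf were at 0 in control, and were above 0 in Fth1-deleted 1 and 4 (5.03 and 2.99 FPKM) and in Fth1-deleted 2 (4.53 FPKM). With Prtn3 the sums overlapped, at 156 to 360 and 195 to 592 FPKM.

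The mast cell and basophil list without Gata2, which stem cells also express, summed to 21.0, 0 and 1.14 FPKM in control and to 28.3, 47.9, 51.1 and 68.1 in Fth1-deleted libraries, with 5 and 9 of 12 genes above 0 and Mcpt8, Prss34 and Tpsab1 at 0 throughout. With Gata2 the sums were 301 to 385 and 371 to 455 FPKM. Of the 7 tested genes of this list, only Cpa3, named after its values were seen, had groups that do not overlap. Its means were 2.18 FPKM in control and 26.8 in Fth1-deleted libraries, and its limma adjusted p of 0.0983 did not pass. The gap between the sums without Gata2 thus rests on Cpa3. Tpsb2, Mcpt4 and Cma1 were above 0 only in Fth1-deleted 4, at 13.9, 10.7 and 5.93 FPKM. The B cell list without Cd79b summed to 0.694 to 16.1 FPKM in control and 13.7 to 86.1 in Fth1-deleted libraries, with 6 and 12 of 12 genes above 0, and with Cd79b to 17.8 to 28.0 and 28.2 to 97.5. The monocyte and macrophage list without Lyz2 summed to 66.9 to 97.9 and 86.9 to 267 FPKM, with 13 and 14 of 14 genes above 0, and with Lyz2 to 207 to 270 and 194 to 418. The part of these cells in the levels of Alox5 and Alox5ap was not tested. Eosinophil markers were near 0 in both groups (3.18 to 8.12 and 5.55 to 9.26 FPKM, with Epx, Ear1, Ear6 and Retnlg at 0 throughout), as was Alox15. Lists of megakaryocytes (1048 to 1250 and 1090 to 1273 FPKM, Gp1bb and Gp6 at 0) and erythroid cells (1020 to 1532 and 1001 to 1803 FPKM) overlapped between groups. The T and NK cell list overlapped too, at 27.4 to 125 and 85.8 to 143 FPKM, with Cd3e and Tbx21 at 0 throughout.

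**Figure D4:**
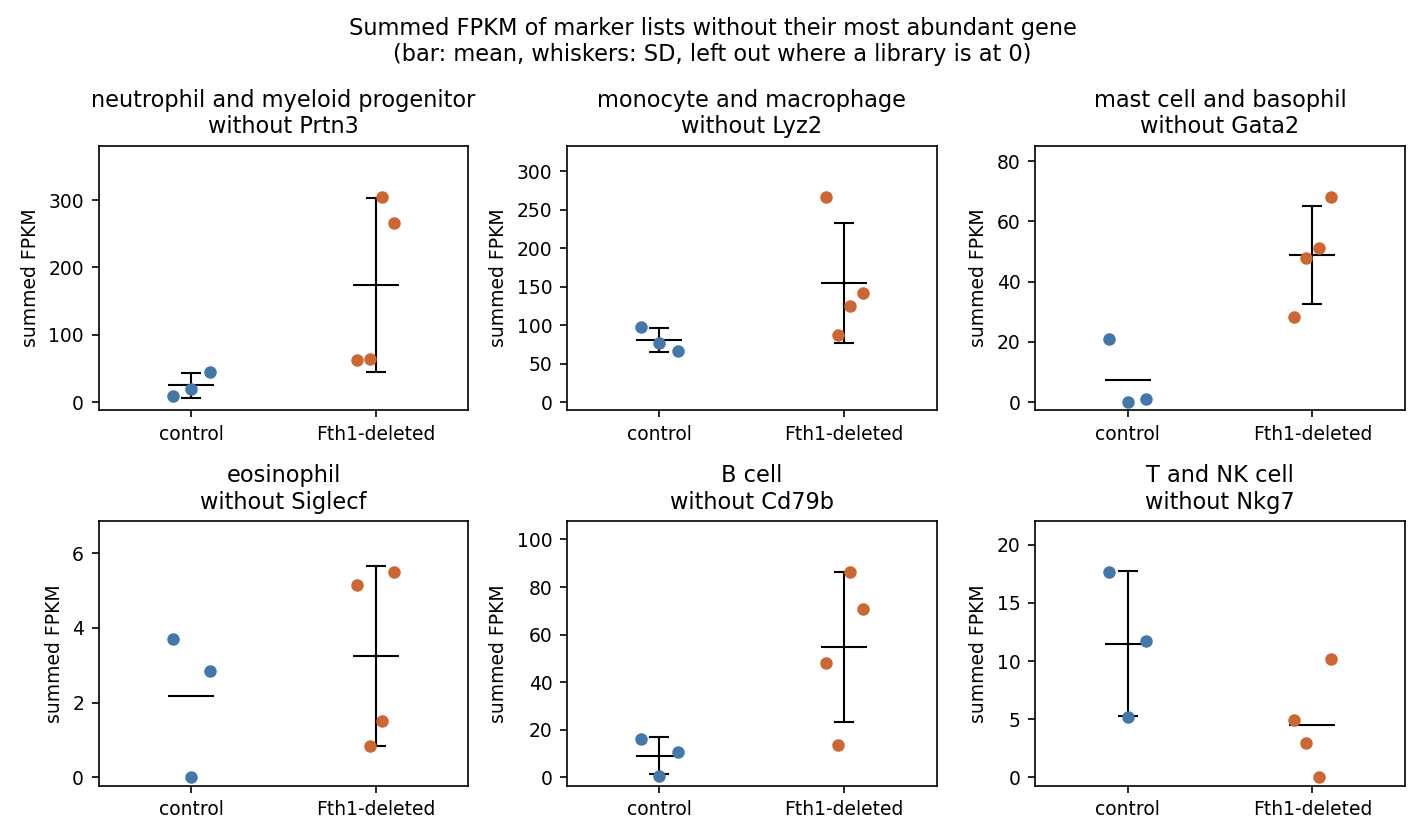
Summed FPKM (vertical axes, 1 scale per panel) of 6 marker lists, each without its most abundant gene, in 3 control and 4 Fth1-deleted libraries. Points are libraries, bars are means and whiskers are SD, left out where a library is at 0. Sums of the neutrophil and mast cell lists do not overlap between groups, and those of the other 4 lists do. With the most abundant gene kept, the sums of the B cell list do not overlap and those of the neutrophil and mast cell lists do.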

How the data were processed

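Bulk polyA RNA of hematopoietic stem cells was sequenced in 3 control and 4 Fth1-deleted libraries. As deposited, expression is in FPKM, obtained by the authors, per the series text, by mapping paired reads on GRCm38 (HISAT2 2.0.4), counting by gene (HTSeq 0.9.1) and dividing by gene length and library total. The strand setting and annotation release are not given in the sources used here. Of the 55855 identifiers, 55394 matched GENCODE M21, which gave names and coordinates. FPKM steps gave whole reads (within 0.05) for 98.8% to 99.4% of values under 50 reads, and depth and floors (3 reads per library) were taken from them.

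The groups were compared with limma 3.58.1 (R 4.3.3, with a variance trend) on log2(FPKM + 1) for genes averaging 1 FPKM or more, with Benjamini-Hochberg adjustment and a threshold of 0.05. On simulated data of 13948 genes with normal noise, changes were placed only in genes of higher mean level. There it recovered 64% of genes changed by a log2 size of 2 and 99% of those changed by 4, and called 5 unchanged genes. Alox5 lies below that mean level, so these rates do not apply to it. The closing part gives the effect of 20 alternatives. Members and lists were chosen with earlier results of these data known. All 8 members are named. Of each pathway list the 3 genes with the highest mean FPKM are named, except for a gene that is not reported here, as is 1 marker gene, and others are said to be named after their values were seen, as are Aloxe3 and Ltb4r1. The 5 genes most like Alox5 are those with a proper symbol and the smallest root mean square difference. Leaving out the most abundant gene of each marker list was also chosen after values were seen. Promoters are from RefSeq.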

Additional observations from a re-analysis of the deposited data

Results flagged for a closer look

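Of 41 sets of 4 Fth1-deleted values examined by Dixon's test (95% level), 7 had a library far from the other three. For normal values, chance gives about 1 in 20 such sets. That rate does not hold for sets with values at 0. A set with a single value above 0 is always flagged, as were Ptgs2, Aloxe3 and Ptges, so nothing is read from the count. Among the members, Ltc4s was at 5.85 FPKM in Fth1-deleted 1, with 0.222 FPKM as the next value, and Ptgs2 was at 0.562 FPKM in Fth1-deleted 4, with 0 in the others. Among the pathway genes, Aloxe3 was at 2.30 FPKM in Fth1-deleted 3 and Ptges at 1.21 FPKM in Fth1-deleted 1, each with 0 in the others. Cotl1 was at 183 FPKM in Fth1-deleted 4, where the next value was 142 FPKM. Cyp4f16 was at 25.1 FPKM in Fth1-deleted 2, where the next value was 18.8 FPKM. Cysltr2 was at 5.01 FPKM in Fth1-deleted 3, below the next value of 14.5 FPKM.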

How the results depend on the processing

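The groups of Alox5 and Alox5ap do not overlap, so over the 20 alternatives only the size of their difference is given. The log2 difference of Alox5 ran from 1.74 (5 added to FPKM) through 6.84 (0.1 added) to 9.08 (limma-voom), and from 3.41 to 3.89 with 1 library left out. That of Alox5ap was 0.55 with the ribosomal RNA share as covariate, 0.71 in the 5 libraries rich in it, and 0.86 to 1.17 with 1 library left out. Lta4h was at 0.64 and 0.47 in those 2 settings, and at -0.02 to 0.25 with 1 library left out. Ptgs1 was at 0.05 with the covariate. Of the members 0 passed in each alternative but limma without a variance trend, where 1, Alox5, passed, as did 1 pathway gene, Ptges. Over all genes the 8 calls became 0 with no filter, 0 in the 5 libraries low in mt-Co2, 5 with limma-voom, 17 without the trend, 17 with a term for Y-linked reads, 32 with the covariate and 234 in the 5 libraries rich in ribosomal RNA. With 1 library left out they ranged from 0 (control 3) to 19 (control 1), with 13 without control 2 and 1 without Fth1-deleted 3. Marker calls, 1 at first, were 0 with no filter, without the trend, with the covariate and in the libraries low in mt-Co2, 3 in those rich in ribosomal RNA, and 0 to 3 with 1 library left out. The replicate numbers did not pair the samples (correlations of deviations 0.009, 0.061 and -0.037), and with a replicate block 0 genes, 0 members, 0 pathway genes and 0 markers passed. The cause of these changes was not tested.

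Pathway genes that did not pass changed sign in some settings. With the covariate the log2 difference was 0.16 for Pla2g6, 0.77 for Lpcat3, -0.070 for Mapkapk2, -0.058 for Abcc1, -0.27 for Abcc4, 1.51 for Tbxa2r, -0.082 for Gpx4 and -0.96 for Ephx1. In the libraries rich in ribosomal RNA it was 0.074 for Pla2g6, 0.45 for Lpcat3, -0.0080 for Abcc4, 1.03 for Tbxa2r and -0.59 for Ephx1. With the Y-linked term it was 0.11 for Lpcat3, 0.30 for Tbxa2r and -0.19 for Ephx1. In the libraries low in mt-Co2 it was 0.14 for Pla2g6, 0.11 for Lpcat3, -0.11 for Abcc1 and -0.32 for Ephx1. Abcc1 was at -0.013 as TPM and Ltb4r2 at -0.041 with 5 added. With 1 library left out the ranges were -0.36 to 0.026 for Pla2g4a, -0.37 to 0.042 for Pla2g6, -0.040 to 0.18 for Abcc1, -0.52 to 0.10 for Ltb4r2, -0.18 to 0.12 for Ptger3, -1.04 to 0.0082 for Tbxa2r, -0.054 to 0.34 for Gpx1 and -0.15 to 0.46 for Ephx1. Alox12, Ltc4s and Ptgs2 had reads in some libraries and 0 in others of like depth, and the cause was not tested.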
